A study of Mus musculus with 4 samples.

Results

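The Zscan4 genes and other genes of the 2-cell-like state were followed in mouse embryonic stem cells of 2 genotypes, Zfp57-/- and wild type. ZFP57 is a zinc finger protein of the KRAB class and keeps imprinting control regions methylated. The members were chosen by symbol: every symbol that begins with Zscan4 or Tcstv, together with Zfp352, Dppa2 and Dppa4. Of 26130 genes listed, 9 met the rule, namely Zscan4b, Zscan4c, Zscan4d, Zscan4e, Zscan4f, Zscan4-ps2, Zfp352, Dppa2 and Dppa4. No symbol began with Tcstv, so Tcstv genes were not analysed here.

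The groups were Zfp57-/- and wild-type cells of E14, a line of strain 129P2/OlaHsd, and Zfp57-/- and wild-type cells of JB1, a line of strain JF1/B6. Each of the 4 groups was 1 poly(A)-selected RNA-seq library, and all cells grew feeder-free on gelatin in serum with leukemia inhibitory factor. The labels say neither how many clones stand behind a genotype nor which part of Zfp57 was removed. Levels are RPM (reads of a gene for every 1000000 reads in its library's total), and intervals are 95% intervals for counting error only. With 1 library a group they say nothing about the spread between cultures, and no p-value exists for a single line.

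The 2-cell-like state is a rare, reversible state in which embryonic stem cells switch on genes that the mouse embryo transcribes at the 2-cell stage. Zscan4 proteins carry a SCAN domain and zinc fingers, and in mouse embryonic stem cells they are known for bursts of expression and for lengthening telomeres. Dppa2 and Dppa4 are DNA-binding partner proteins, made in most embryonic stem cells, that are needed to switch on Dux and, through it, Zscan4. Zfp352 is a zinc finger gene of the 2-cell embryo. In RNA from whole cultures, a change in the number of Zscan4-positive cells and a change in the RNA of each such cell cannot be told apart.

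The libraries held 37965626 reads in listed genes for the E14 knockout, 26801865 for E14 wild type, 66849394 for the JB1 knockout and 47458221 for JB1 wild type. Zfp57 itself was at 51.8 RPM in the E14 knockout, against 135 RPM in E14 wild type, and at 42.9 RPM in the JB1 knockout, against 796 RPM in JB1 wild type. Markers of embryonic stem cells were present throughout, with Pou5f1 at 442 RPM in the E14 knockout and 480 RPM in E14 wild type, and at 940 RPM in the JB1 knockout and 925 RPM in JB1 wild type. Nanog, another core factor, was lower in both knockout libraries, at 137 RPM in the E14 knockout, against 228 RPM in E14 wild type, and at 362 RPM in the JB1 knockout, against 693 RPM in JB1 wild type. In a limma fit of the genotype over both lines its estimate was −0.83 on the log2 scale (SE 0.17, adjusted p = 0.623). Sox2 and Esrrb were also lower in both, with ratios of 0.849 and 0.839 in E14 and of 0.629 and 0.741 in JB1. Klf2 was higher in the E14 knockout (ratio 1.25) and lower in the JB1 knockout (0.93). Tdgf1 was lower in the E14 knockout (0.93) and higher in the JB1 knockout (1.10). Over all 6 stem cell markers the summed level was 1524 RPM in the E14 knockout and 1765 RPM in E14 wild type. In JB1 it was 3063 RPM in the JB1 knockout and 3754 RPM in JB1 wild type. Of the other cell types, 6 primitive endoderm markers summed to 7.09 and 9.61 RPM in the E14 knockout and wild type and to 45.7 and 35.9 RPM in the JB1 knockout and wild type. The 6 trophoblast markers summed to 20.9 and 22.3 RPM in the E14 knockout and wild type and to 74.5 and 45.0 RPM in the JB1 knockout and wild type. The 6 fibroblast markers summed to 2.08 and 1.59 RPM in the E14 knockout and wild type and to 13.5 and 7.62 RPM in the JB1 knockout and wild type, with Dcn at 0 reads in every library, Lum at 0 in all but the JB1 knockout and Col3a1 at 0 in JB1 wild type. The 5 primed epiblast markers summed to 79.8 and 59.4 RPM in the E14 knockout and wild type and to 171 and 77.9 RPM in the JB1 knockout and wild type. The 6 germ cell markers summed to 78.2 and 63.4 RPM in the E14 knockout and wild type and to 184 and 185 RPM in the JB1 knockout and wild type. Within the JB1 sums Kit was at 72.0 RPM in the knockout, against 32.1 RPM in the wild type, while Ddx4 was at 37.1 RPM in the knockout, against 60.6 RPM in the wild type, and Mael at 9.32 RPM in the knockout, against 16.1 RPM in the wild type. The trophoblast marker Krt8 was at 13.96 RPM in the JB1 knockout, against 5.79 RPM in JB1 wild type. The primed marker Dnmt3b was at 145 RPM in the JB1 knockout, against 61.4 RPM in JB1 wild type. Sums of RPM follow their most abundant genes. Tcfap2c, a trophoblast marker, was at 54.7 RPM in the JB1 knockout and 35.2 RPM in JB1 wild type. The primitive endoderm marker Dab2 was at 29.6 RPM in the JB1 knockout and 20.2 RPM in JB1 wild type. Of the 6 primitive endoderm markers, Gata4 alone was lower in the JB1 knockout, at 2.97 RPM against 6.10 RPM. Of the 5 primed markers, Otx2 alone was lower there, at 2.06 RPM against 2.80 RPM. The part of these cell types in the results below was not tested.

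The Zscan4 genes lie together on chromosome 7, between 11486098 and 12104460 in the coordinates of the deposited tables (mm9). RefSeq sequences on build GRCm38.p6 were matched for 5 of the 9 members, Zfp352 and 4 Zscan4 genes, and the 250 bases before the start of those 4 Zscan4 genes are shown because all copies stood higher in the knockout library of both lines. Capitals mark the string TATAAAA and every CG, the dinucleotide that carries DNA methylation in mammals.
Zscan4b (chr7:10905051-10905300, minus strand): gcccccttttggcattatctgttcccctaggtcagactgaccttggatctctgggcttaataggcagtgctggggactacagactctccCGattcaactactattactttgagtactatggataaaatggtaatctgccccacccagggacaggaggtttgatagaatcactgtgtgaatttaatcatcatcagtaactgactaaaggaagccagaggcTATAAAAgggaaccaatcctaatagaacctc
Zscan4c (chr7:11005495-11005744, plus strand): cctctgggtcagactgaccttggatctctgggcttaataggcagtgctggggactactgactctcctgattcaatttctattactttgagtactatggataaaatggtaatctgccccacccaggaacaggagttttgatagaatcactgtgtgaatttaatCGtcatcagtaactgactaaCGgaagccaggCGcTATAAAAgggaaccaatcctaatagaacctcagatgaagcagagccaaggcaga
Zscan4d (chr7:11166149-11166398, minus strand): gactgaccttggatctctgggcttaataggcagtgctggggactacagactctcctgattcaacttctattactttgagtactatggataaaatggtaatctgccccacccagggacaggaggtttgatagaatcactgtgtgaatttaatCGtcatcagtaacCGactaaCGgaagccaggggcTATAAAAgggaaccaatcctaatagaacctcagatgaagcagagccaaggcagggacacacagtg
Zscan4f (chr7:11397665-11397914, plus strand): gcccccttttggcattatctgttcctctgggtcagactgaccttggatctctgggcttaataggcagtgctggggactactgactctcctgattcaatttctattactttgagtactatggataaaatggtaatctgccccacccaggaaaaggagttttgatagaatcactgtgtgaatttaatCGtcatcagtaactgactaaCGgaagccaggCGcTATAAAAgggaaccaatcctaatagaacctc

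These stretches were nearly alike. Between pairs the aligned bases were 94.7% to 99.6% identical, with the highest value for Zscan4c and Zscan4f. Each held TATAAAA once, beginning 31 bases before the annotated start in Zscan4b and Zscan4f, 54 in Zscan4c and 65 in Zscan4d. On either strand, 4.98% of 32841 promoter windows of the same length held TATAAAA. CG occurred once in the Zscan4b window and 3 times in each of the other Zscan4 windows, and the Zfp352 window held 2, against a median of 6 over all windows, of which 37.8% held 3 or fewer. None of the 5 members' windows held TGCCGC, the methylated hexamer that ZFP57 binds, on either strand, while 8.68% of all windows did. The string TGATTNAATCA, a pair of repeats of the kind that mouse Dux binds, was in none of the 5 and in 0.0304% of all windows. A missing string says only that these letters are not in the window.

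The transcribed sequences were nearly alike too, so single copies are uncertain. The longest GENCODE M21 transcripts of the 6 listed copies were 94.1% (Zscan4d and Zscan4e) to 99.3% (Zscan4c and Zscan4-ps2) identical over their aligned bases. Of all windows of 50 bases in a copy, between 49.6% (Zscan4d) and 93.7% (Zscan4f) occurred unchanged in another of the 9 annotated Zscan4 copies. With windows of 100 bases the shares were 29.6% for Zscan4d and 89.5% for Zscan4f. How reads that fit several copies were counted is not given in the sources used here. If each was counted once, the sum over the 6 copies does not depend on how reads were split among them. If they were dropped, the sum is too low. If they were counted for every copy, the sum is too high and its intervals are too narrow. The sum can also miss reads shared with Zscan4a, Zscan4-ps1 or Zscan4-ps3, which were not analysed here. RefSeq lists Zscan4e and Zscan4-ps2 as pseudogenes.

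Zscan4 RNA was higher in the knockout library of both lines. The 6 copies together were at 35.1 RPM in the E14 knockout (2481 reads, interval 33.7 to 36.5), against 23.3 RPM in E14 wild type (1175 reads, 22.0 to 24.7), a ratio of 1.51 (1.41 to 1.62). In JB1 they were at 10.7 RPM in the knockout (1042 reads, 10.1 to 11.4), against 4.61 RPM in the wild type (319 reads, 4.12 to 5.14), a ratio of 2.33 (2.05 to 2.65). The counting intervals of the 2 ratios did not overlap. Whether the lines differed in their response was not tested, since 1 library a group leaves no residual degree of freedom for it. Without Zscan4-ps2, the ratios were 1.503 in E14 and 2.39 in JB1.

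The wild-type lines differed more from each other than either differed from its knockout. The summed Zscan4 level was 4.61 RPM in JB1 wild type, against 23.3 RPM in E14 wild type, 5.05-fold lower in JB1. It was 10.7 RPM in the JB1 knockout, against 35.1 RPM in the E14 knockout, 3.27-fold lower in JB1. The order was therefore E14 knockout, E14 wild type, JB1 knockout and JB1 wild type, and the counting intervals of neighbours in it did not overlap. The 2 tables were normalized separately, and the listed genes took up 53.1% to 53.7% of the library totals in E14 and 68.6% to 68.9% in JB1, so levels across lines are a description.

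**Figure D1:**
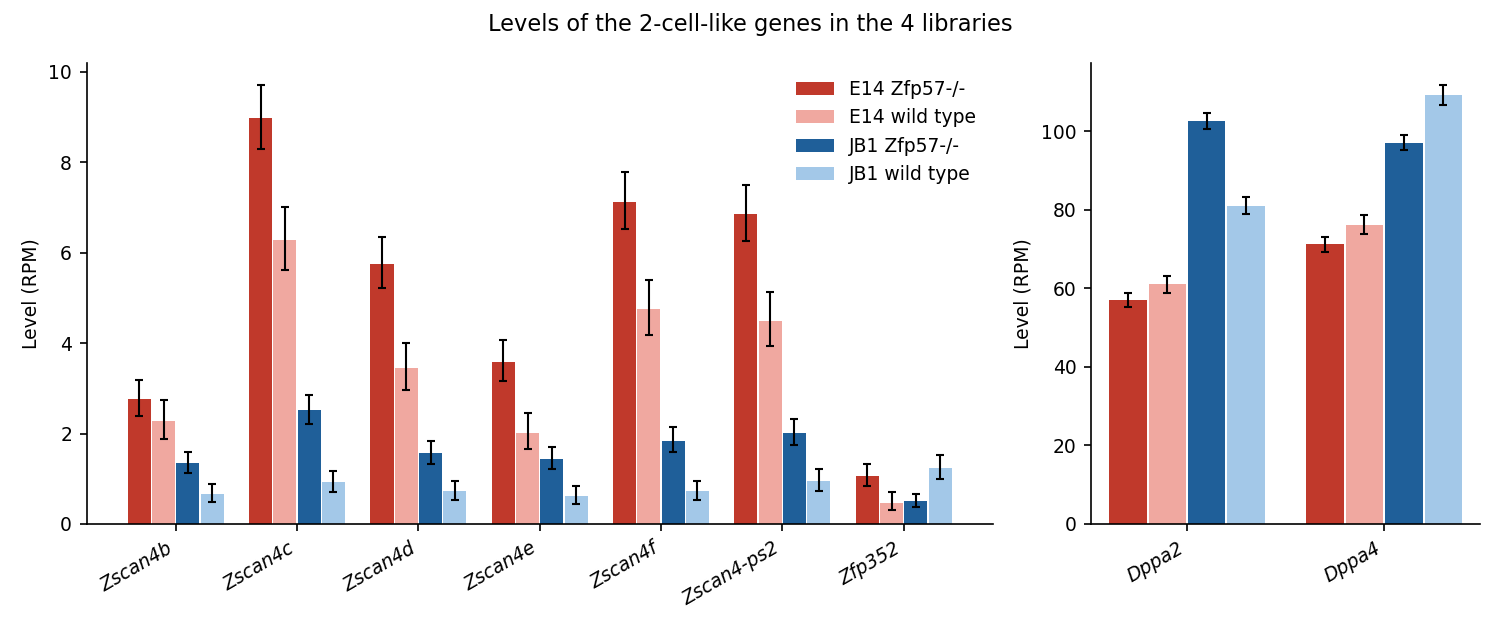
Level in RPM (vertical axes, linear from 0) of each member in the 4 libraries, with bars for single libraries and lines for exact Poisson intervals of the read count. All 6 Zscan4 copies ran in the order E14 Zfp57-/-, E14 wild type, JB1 Zfp57-/-, JB1 wild type, whereas Zfp352, Dppa2 and Dppa4 each had another order.

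Zscan4c (chromosome 7, 11591071 to 11595896, plus strand), the copy with the highest level in 3 of the 4 libraries, was at 8.98 RPM in the E14 knockout, against 6.28 RPM in E14 wild type, a ratio of 1.43 (1.25 to 1.64). It was at 2.53 RPM in the JB1 knockout, against 0.925 RPM in JB1 wild type, a ratio of 2.73 (2.07 to 3.66). It was the copy with the largest ratio in JB1 and the second smallest in E14.

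Zscan4f (11983264 to 11988090, plus strand), whose annotated transcript shares most of its windows with other copies, was at 7.13 RPM in the E14 knockout, against 4.75 RPM in E14 wild type, a ratio of 1.50 (1.28 to 1.76). In JB1 it was at 1.85 RPM in the knockout, against 0.723 RPM in the wild type, a ratio of 2.55 (1.86 to 3.57).

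Zscan4d (11746992 to 11751497, minus strand) is the copy with the most sequence of its own. It was at 5.76 RPM in the E14 knockout, against 3.45 RPM in E14 wild type, a ratio of 1.67 (1.40 to 2.01). It was at 1.57 RPM in the JB1 knockout, against 0.723 RPM in JB1 wild type, a ratio of 2.17 (1.57 to 3.05). Both ratios lay inside the range of the other copies.

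Zscan4-ps2 (12099659 to 12104460, plus strand) was at 6.86 RPM in the E14 knockout, against 4.50 RPM in E14 wild type (ratio 1.53, 1.30 to 1.79), and at 2.02 RPM in the JB1 knockout, against 0.954 RPM in JB1 wild type (ratio 2.12, 1.595 to 2.85). Zscan4e (11891727 to 11896031, minus strand) was at 3.59 RPM in the E14 knockout, against 2.02 RPM in E14 wild type (ratio 1.78, 1.41 to 2.26), the largest of the 6 in that line. In JB1 it was at 1.44 RPM in the knockout, against 0.621 RPM in the wild type (ratio 2.32, 1.64 to 3.35). Zscan4b (11486098 to 11490399, minus strand) was at 2.77 RPM in the E14 knockout, against 2.28 RPM in E14 wild type, and its ratio of 1.22 was the only one of the 12 whose interval (0.962 to 1.55) included 1. In JB1, Zscan4b was at 1.34 RPM in the knockout, against 0.665 RPM in the wild type, a ratio of 2.02 (1.43 to 2.89).

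**Figure D2:**
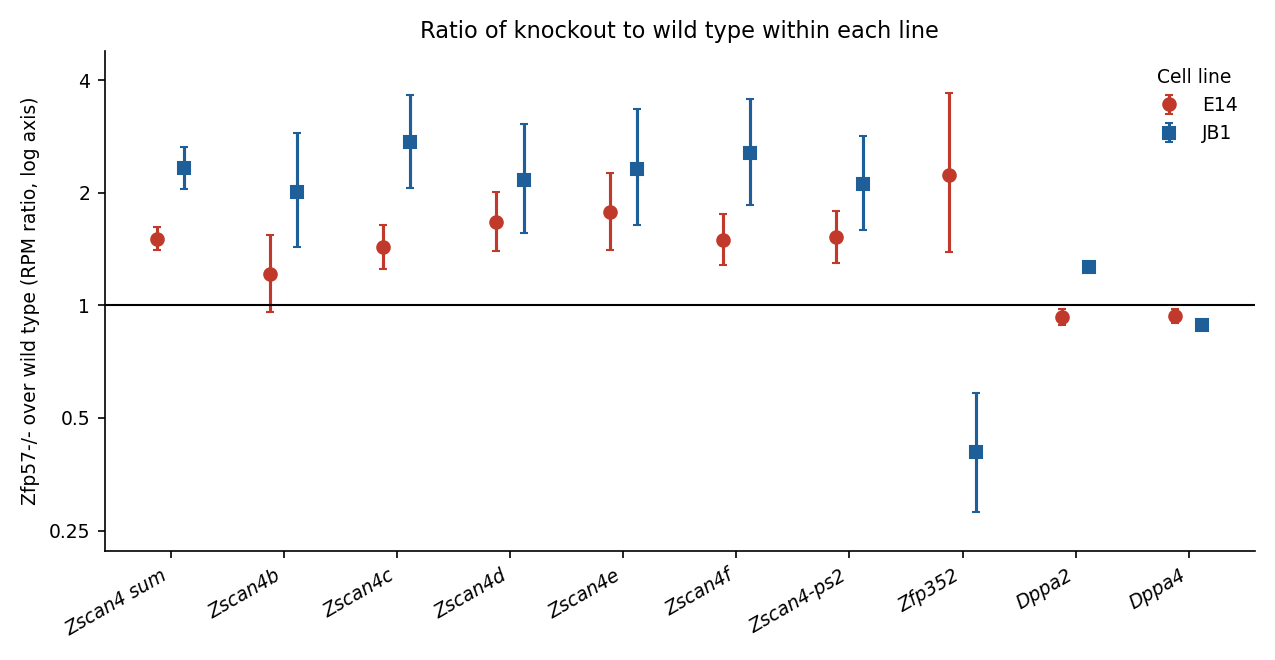
Ratio of RPM, Zfp57-/- over wild type (vertical axis, log scale), for the Zscan4 sum and each member, with circles for E14, squares for JB1 and lines for exact conditional binomial intervals. Zscan4 ratios ran from 1.22 to 1.78 in E14 and from 2.02 to 2.73 in JB1, and Zfp352 lay on opposite sides of 1 in the 2 lines.

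The copies kept similar shares of the Zscan4 reads in knockout and wild type. Zscan4c had 25.6% of them in the E14 knockout (23.9% to 27.4%), against 27.0% in E14 wild type (24.5% to 29.6%). In JB1 its share was 23.5% in the knockout (20.97% to 26.2%), against 20.1% in the wild type (15.8% to 24.9%). These and all other copies' exact binomial intervals overlapped between knockout and wild type of the same line. Between lines, intervals of the smaller copies separated for Zscan4b in the knockouts. Zscan4b had 12.5% of the reads in the JB1 knockout (10.53% to 14.6%), against 7.90% in the E14 knockout (6.87% to 9.03%). Zscan4e had 13.5% in JB1 wild type (9.93% to 17.7%), against 8.68% in E14 wild type (7.13% to 10.4%), with overlapping intervals. The intervals also overlapped for Zscan4b in the wild types and for Zscan4e in the knockouts. The lines are of different strains, and the part of strain in these shares was not tested.

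**Figure D3:**
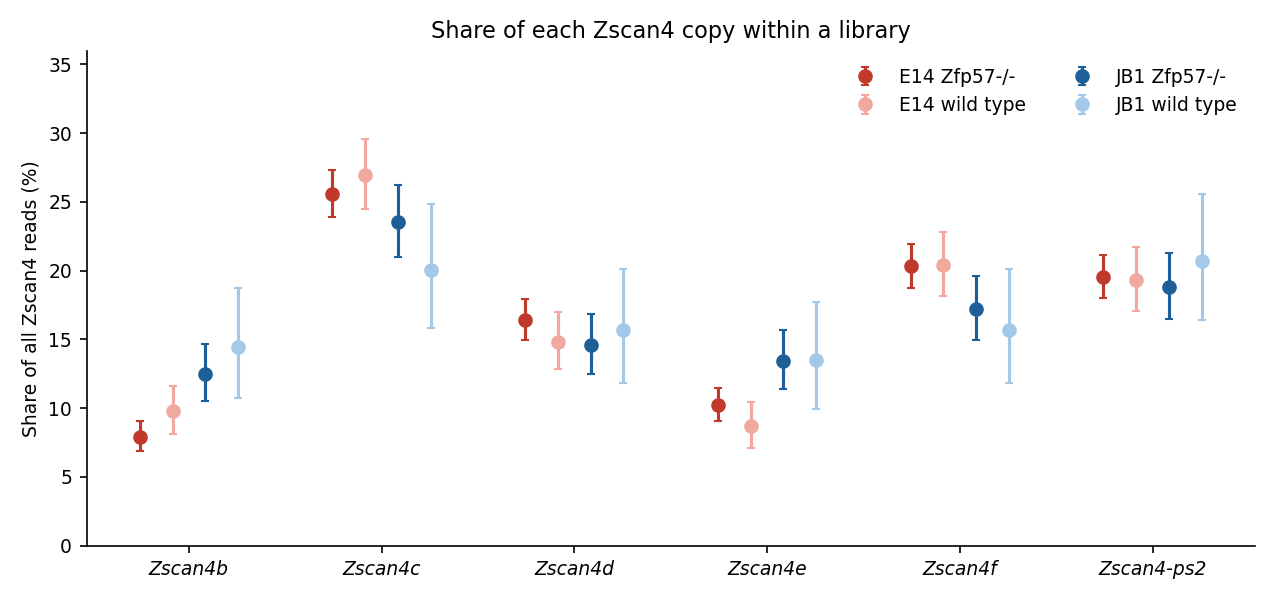
Share of all Zscan4 reads (percent, vertical axis) taken by each copy in each library, with lines for exact binomial intervals. Zscan4c and Zscan4f had lower shares and Zscan4b and Zscan4e higher shares in the JB1 libraries than in the E14 libraries, and no copy's intervals separated knockout from wild type within a line.

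Set against all genes, no single member passed the fold used for calls. Among 12276 genes at 1 RPM or more in either E14 library, 0.953% had a level 2-fold or more above wild type in the knockout, and 0.269% a level 2-fold or more below it, on the log2(RPM + 1) scale. Among 13132 genes in JB1, these shares were 2.50% above and 1.58% below. None of the 9 members was past 2-fold on this scale in either line. The added 1 shrinks low levels: all 6 Zscan4 ratios in JB1 were above 2 before it was added. All 9 members passed the 1 RPM filter in each line, but in JB1 the 6 Zscan4 copies passed through the knockout library alone and Zfp352 through the wild type alone. In E14, Zfp352 passed through the knockout alone. A Zscan4 copy that passes in this way has to be higher in the knockout, so the JB1 values are given as a description.

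On that scale the Zscan4 differences were 0.20 (Zscan4b) to 0.60 (Zscan4e) in E14, beside a median of 0.02 over all genes. In that line 3.50% of genes were above Zscan4e and 23.6% above Zscan4b. In JB1 the Zscan4 differences were 0.49 (Zscan4b) to 0.87 (Zscan4c), beside a median of 0.01 over all genes. There 3.62% of genes were above Zscan4c and 13.8% above Zscan4b, and the filter had fixed the direction of every copy. The summed Zscan4 level differed by 0.57 in E14 and by 1.07 in JB1.

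The genotype effect common to both lines was fitted with limma over 12644 genes whose mean reached 1 RPM, with the line as a term. No gene passed an adjusted p of 0.05: 0% were called higher and 0% lower in the knockouts. At an unadjusted p under 0.05 there were 1005 genes, or 7.95%. For Zscan4c the limma estimate was 0.66 on the log2 scale (SE 0.22, adjusted p = 0.623), and it was higher in the knockout of both lines. The other 4 copies apart from Zscan4b had limma estimates of 0.57 to 0.61 with the same adjusted p of 0.623. That was the lowest value among all genes, but it was a tie that does not rank the copies. Genes with a smaller unadjusted limma p, such as Morc1, Nanog and Dnmt3b, had the same adjusted value. Zscan4b had an estimate of 0.35 (SE 0.23, limma adjusted p = 0.681). The 2 lines are the only replication, with 1 residual degree of freedom per gene.

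Zfp352 (chromosome 4, 89885511 to 89892393, plus strand) lay on opposite sides of wild type in the 2 lines. It was at 1.06 RPM in the E14 knockout (75 reads), against 0.475 RPM in E14 wild type (24 reads), 2.23-fold higher (1.39 to 3.70). It was at 0.505 RPM in the JB1 knockout (49 reads), against 1.24 RPM in JB1 wild type (86 reads), 2.46-fold lower (1.71 to 3.57). Unlike Zscan4, it was 2.61 times as high in JB1 wild type as in E14 wild type. The level per kilobase of its longest transcript was 0.466 RPM in the E14 knockout and 0.209 RPM in E14 wild type. In JB1 it was 0.222 RPM in the knockout and 0.546 RPM in JB1 wild type. With a mean of 0.821 RPM it was below the limit for the limma fit.

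Dppa4 (chromosome 16, 48283848 to 48294405, plus strand), one of the upstream pair, was slightly lower in both knockout libraries. It was at 71.2 RPM in the E14 knockout, against 76.1 RPM in E14 wild type, 1.07-fold lower (1.025 to 1.115). It was at 97.1 RPM in the JB1 knockout, against 109 RPM in JB1 wild type, 1.13-fold lower (1.09 to 1.16). The limma estimate was −0.13 (SE 0.15, adjusted p = 0.807), with an interval of −0.49 to 0.23.

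Dppa2 (chromosome 16, 48310590 to 48319836, plus strand), its partner, was at 56.9 RPM in the E14 knockout, against 61.1 RPM in E14 wild type, 1.07-fold lower (1.02 to 1.125). It was at 103 RPM in the JB1 knockout, against 81.1 RPM in JB1 wild type, 1.27-fold higher (1.225 to 1.31). The limma estimate over both lines was 0.12 (SE 0.17, adjusted p = 0.857), with an interval of −0.30 to 0.53.

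The balance of the pair differed in a single library. Dppa2 had 0.7995 reads for each Dppa4 read in the E14 knockout (0.767 to 0.834), against 0.802 in E14 wild type (0.765 to 0.841), and 1.06 in the JB1 knockout (1.03 to 1.09), against 0.742 in JB1 wild type (0.717 to 0.768). By RPM of the library total, both genes were higher in JB1 than in E14, the reverse of Zscan4. In wild-type cells Dppa2 was 1.33 times and Dppa4 1.44 times as high in JB1 as in E14 by that measure. Listed genes took up 53.1% of the library total in E14 wild type and 68.6% in JB1 wild type. Dppa2 had 5612 reads among 47458221 in listed genes in JB1 wild type, and 3083 among 26801865 in E14 wild type. With RPM of the reads in the listed genes both ratios would be smaller, and Dppa2 would be nearly level between the wild types. The exact ratios were not computed on that scale. Per kilobase of the longest transcript, Dppa4 stood at 48.1 RPM in the E14 knockout, 51.5 RPM in E14 wild type, 65.6 RPM in the JB1 knockout and 73.9 RPM in JB1 wild type. Dppa2 stood at 23.3, 25.0, 42.0 and 33.1 RPM per kilobase in the same libraries. The highest Zscan4 value on that scale was 3.95 RPM per kilobase, for Zscan4c in the E14 knockout.

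The neighbours of the members were mostly silent. Of the 3 listed genes on each side of the Zscan4 cluster, Gm6900 alone had reads, at 19.2 RPM in the E14 knockout and 19.3 RPM in E14 wild type, and at 24.4 RPM in the JB1 knockout and 36.2 RPM in JB1 wild type. Gm10991, inside the cluster, had 0 reads in all 4 libraries. Nlrp4b, Vmn1r71, Vmn1r72, Vmn1r73 and Vmn1r74, the others of these 6, also had 0 reads. Next to Zfp352, Gm12629, Gm12668 and Gm12670 had 0 reads in all libraries, Gm12610 and Dmrta1 were at 0.258 RPM or less, and the RNA-binding protein gene Elavl2 was at 16.3 RPM in the E14 knockout and 16.5 RPM in E14 wild type, and at 10.2 RPM in each JB1 library. Before Dppa4, Pvrl3, a cell adhesion gene, was at 26.3 RPM in the E14 knockout and 30.8 RPM in E14 wild type, and at 18.9 RPM in the JB1 knockout and 19.1 RPM in JB1 wild type. Gm7275, Trat1 and Retnlb had 0 reads in all libraries, and Gm7204 was at 0.0722 RPM or less. The gene that follows Dppa2 on chromosome 16, Morc1, encodes an ATPase needed in male mouse germ cells to silence retrotransposons. Morc1 was at 116 RPM in the E14 knockout, against 60.6 RPM in E14 wild type, a ratio of 1.92 (1.84 to 2.00), and at 109 RPM in the JB1 knockout, against 67.5 RPM in JB1 wild type, a ratio of 1.62 (1.57 to 1.68). Its limma estimate was 0.81 (SE 0.16, adjusted p = 0.623), and it was higher in the knockout of both lines.

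Other genes of the 2-cell-like state were mostly higher in the E14 knockout. Of 45 symbols in a list, 33 were matched, and 29 of these were higher and 2 lower in the E14 knockout with no filter. At 1 RPM or more in either E14 library all 13 were higher, and 2 of these passed 2-fold on the log2(RPM + 1) scale, beside 53.5% of all genes higher and 0.953% at least 2-fold higher. Of the 13, 4 reached 1 RPM in the knockout alone and so had to be higher, and at 1 RPM in both libraries 9 of 9 were higher. In JB1, 21 were higher and 10 lower with no filter. At 1 RPM in either JB1 library 10 of 12 were higher, and 1 of these passed 2-fold, beside 51.5% of all genes higher and 2.50% at least 2-fold higher. Gm12794, BC080695 and Tmem92-ps, the gene past 2-fold, reached 1 RPM in the JB1 knockout alone. At 1 RPM in both JB1 libraries 7 of 9 were higher. The share of all genes that were higher was not computed without a filter or at 1 RPM in both libraries. Those counts therefore have no background beside them. Genes without reads were fewer in the deeper knockout libraries: 7588, against 8422 in wild type, in E14, and 6749, against 7743, in JB1. Several of these genes are near-identical copies that can share reads, and no gene of the list passed the limma threshold.

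The list members past 2-fold on the log2(RPM + 1) scale were Pramel6 and Pramel7 in E14 and Tmem92-ps in JB1. Among list genes at 1 RPM or more in either library, 2 others were past 2-fold by the plain ratio of RPM. They were Trim43b in E14 (2.24, 1.74 to 2.91) and Gm12794 in JB1 (2.28, 1.63 to 3.25). Several list genes under 1 RPM in both libraries of a line also had plain ratios past 2-fold and are left out here. The share of all genes past 2-fold by the plain ratio was not computed. Pramel6 was at 7.70 RPM in the E14 knockout, against 2.75 RPM in E14 wild type (ratio 2.80, 2.32 to 3.39), and at 0.742 RPM in the JB1 knockout, against 0.751 RPM in JB1 wild type. Pramel7, which promotes ground-state pluripotency in mouse cells, was at 4.56 RPM in the E14 knockout, against 1.55 RPM in E14 wild type (ratio 2.95, 2.295 to 3.83), and at 1.27 RPM in the JB1 knockout, against 1.76 RPM in JB1 wild type. Tmem92-ps, an older symbol of Tmem92, was at 1.12 RPM in the E14 knockout, against 0.733 RPM in E14 wild type, and at 2.12 RPM in the JB1 knockout, against 0.434 RPM in JB1 wild type, a ratio of 4.90 (3.33 to 7.45).

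The members of the list with the highest levels were Gm5662, Gm2016 and Gm6763. Gm5662 was at 11.6 RPM in the E14 knockout and 7.13 RPM in E14 wild type, and at 4.19 RPM in the JB1 knockout and 3.30 RPM in JB1 wild type. Gm2016 was at 10.8 RPM in the E14 knockout and 6.87 RPM in E14 wild type, and at 4.10 RPM in the JB1 knockout and 3.67 RPM in JB1 wild type. Gm6763 was at 10.9 RPM in the E14 knockout and 7.25 RPM in E14 wild type, and at 2.62 RPM in the JB1 knockout and 2.08 RPM in JB1 wild type. All 3 had their highest level in the E14 knockout library and lower levels in JB1, the order seen for Zscan4. Dux, the homeobox gene that switches on this set in mouse cells, had 0 reads in all 4 libraries, which allows up to 0.0594 RPM in E14 wild type. That limit covers counting error only. How reads that fit several places were counted is not given, so uncounted Dux reads are possible.

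**Figure D4:**
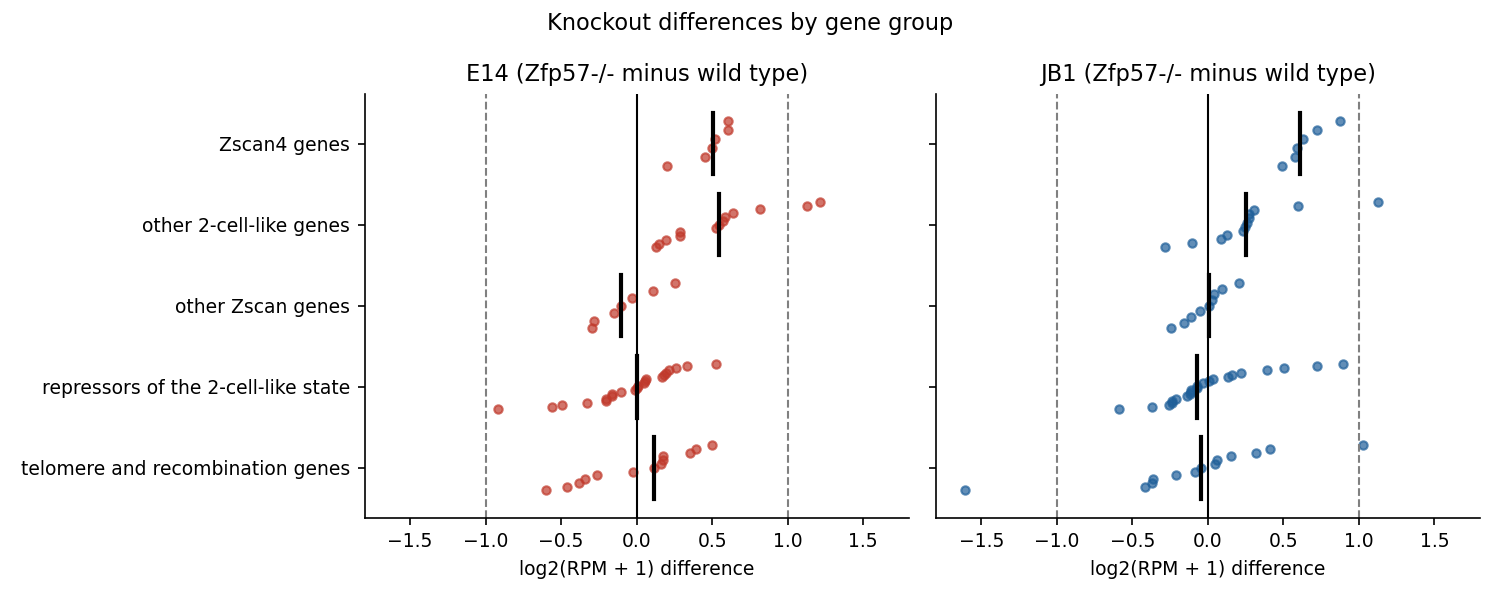
Difference in log2(RPM + 1), Zfp57-/- minus wild type (horizontal axes), of single genes at 1 RPM or more in either library of the line, by gene group, with thick bars for group medians and dashed lines at 2-fold. The 6 Zscan4 genes and most other 2-cell-like genes lie right of 0 in both lines, and the other Zscan genes and the repressors lie on both sides of 0. In JB1 all 6 Zscan4 genes reached 1 RPM in the knockout alone and so had to lie right of 0. The same held for some of the other 2-cell-like genes in each line.

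Genes known to hold the 2-cell-like state down lay on both sides of wild type. Of 22 repressors measured in each line, 12 were higher and 10 lower in the E14 knockout (median 0.00) and 9 were higher and 13 lower in the JB1 knockout (median −0.07), with none past 2-fold. Among all genes 53.5% were higher in E14 and 51.5% in JB1, and the shares past 2-fold were 0.953% above and 0.269% below wild type in E14 and 2.50% above and 1.58% below in JB1. Trim28, the corepressor that KRAB zinc finger proteins recruit, was at 842 RPM in the E14 knockout, against 943 RPM in E14 wild type, and at 1332 RPM in the JB1 knockout, against 1397 RPM in JB1 wild type. Rif1, a replication-timing factor, was at 1231 RPM in the E14 knockout, against 1086 RPM in E14 wild type, and at 424 RPM in the JB1 knockout, against 547 RPM in JB1 wild type. Ncl, which encodes nucleolin, was at 604 RPM in the E14 knockout, against 609 RPM in E14 wild type, and at 3713 RPM in the JB1 knockout, against 2830 RPM in JB1 wild type.

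Of the activators listed beside Dux, Tbx3 was at 108 RPM in the E14 knockout and 107 RPM in E14 wild type, and at 287 RPM in the JB1 knockout and 298 RPM in JB1 wild type. Nelfa, listed under its older symbol Whsc2, was at 22.1 RPM in the E14 knockout and 26.2 RPM in E14 wild type, and at 44.3 RPM in the JB1 knockout and 33.9 RPM in JB1 wild type. The maternal factor Dppa3 was at 1.85 RPM in the E14 knockout and 1.31 RPM in E14 wild type, and at 14.8 RPM in the JB1 knockout and 19.7 RPM in JB1 wild type. Dppa5a, an RNA-binding protein gene of naive cells, was at 929 RPM in the E14 knockout and 829 RPM in E14 wild type, and at 857 RPM in the JB1 knockout and 883 RPM in JB1 wild type. Its relative Dppa5b was at 1.43 RPM in the E14 knockout and 1.25 RPM in E14 wild type, and at 0.876 RPM in the JB1 knockout and 0.968 RPM in JB1 wild type. None of Tbx3, Nelfa, Dppa3, Dppa5a and Dppa5b was past 2-fold in either line. Few of all genes were: 0.953% above and 0.269% below wild type in E14, and 2.50% above and 1.58% below in JB1.

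Relatives of Zscan4 that share its SCAN domain were higher in some cases and lower in others. Of the other Zscan genes at 1 RPM or more, 2 of 7 were higher in the E14 knockout (median −0.11) and 5 of 9 in the JB1 knockout (median 0.01), and none was past 2-fold. Among all genes 53.5% were higher in E14 and 51.5% in JB1. The shares past 2-fold were 0.953% above and 0.269% below wild type in E14, and 2.50% above and 1.58% below in JB1. Zscan10, a pluripotency factor, was at 25.8 RPM in the E14 knockout, against 27.8 RPM in E14 wild type, and at 120 RPM in the JB1 knockout, against 104 RPM in JB1 wild type. Zscan21 was at 14.9 RPM in the E14 knockout and 15.3 RPM in E14 wild type, and at 21.8 RPM in the JB1 knockout and 24.5 RPM in JB1 wild type. Zscan18 was at 10.9 RPM in the E14 knockout and 13.5 RPM in E14 wild type, and at 18.8 RPM in the JB1 knockout and 18.4 RPM in JB1 wild type.

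Telomere and recombination genes, with which Zscan4 is linked in mouse stem cells, had medians of 0.11 over 13 genes in E14 and −0.04 over 13 in JB1. None was past 2-fold in E14, where 0.953% of all genes were 2-fold or more above wild type and 0.269% below. For JB1 these shares were 2.50% and 1.58%, beside 1 of the 13 genes above and 1 below. In JB1, the meiotic cohesin gene Smc1b was at 6.57 RPM in the knockout, against 22.1 RPM in the wild type, and its partner Rec8 was at 6.35 RPM in the knockout, against 2.62 RPM in the wild type. In E14, Smc1b was at 49.7 RPM in the knockout, against 34.9 RPM in the wild type, and Rec8 was at 0.863 RPM in the knockout, against 1.37 RPM in the wild type. The chromatin remodeller gene Atrx was at 196 RPM in the E14 knockout and 235 RPM in E14 wild type, and at 351 RPM in the JB1 knockout and 282 RPM in JB1 wild type. Rtel1, a helicase gene, was at 59.8 RPM in the E14 knockout and 82.7 RPM in E14 wild type, and at 92.2 RPM in the JB1 knockout and 89.3 RPM in JB1 wild type. The telomerase gene Tert and the shelterin genes of the list were within 2-fold in both lines.

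Of 12636 other genes whose mean reached 1 RPM, those whose pattern over the 4 libraries lay nearest to the summed Zscan4 level were Gpx4, Slc47a1, Spic, Myh13 and Tbc1d9. The measure was the Euclidean distance between log2(RPM + 1) values centred on each gene's own mean, and it was 0.282 for Gpx4 and 0.452 for Tbc1d9. Gpx4, which reduces lipid peroxides, was at 394 RPM in the E14 knockout and 332 RPM in E14 wild type, and at 141 RPM in the JB1 knockout and 76.8 RPM in JB1 wild type. The transporter gene Slc47a1 was at 10.48 RPM in the E14 knockout and 6.08 RPM in E14 wild type, and at 1.86 RPM in the JB1 knockout and 1.03 RPM in JB1 wild type. Spic, Myh13 and Tbc1d9 had ratios of 3.44, 2.53 and 2.66 in JB1. In E14 their ratios were 1.06 (0.908 to 1.23), 1.06 (0.926 to 1.21) and 0.981 (0.896 to 1.075), with intervals that included 1. For scale, the Zscan4 copies themselves lay at 0.223 (Zscan4c) to 1.14 (Zscan4b) from their sum. Zscan4b, Zscan4d, Zscan4e and Zscan4-ps2 lay farther from it than Tbc1d9 did. The measure depends on level, since the added 1 shrinks low levels. Dppa2, at a distance of 2.59, Dppa4, at 2.55, and Zfp352, at 2.26, lay farther than every copy.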

How the data were processed

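Values in the deposited tables, 1 per line, are log2 RPM per gene. The build was mm9 and the tools included TopHat2 2.0.8b, cutadapt and CASAVA 1.8.2, per the submitters' processing notes. Libraries came from a stranded mRNA kit, per the labels' protocols. For the annotation, counter and strand setting, nothing is given in the sources used here. Whole reads were recovered from the steps of the values, which came out whole for 100% of genes with reads within a relative tolerance of 0.0001. At 1 RPM a gene had 50.5 to 97.0 reads. Ratios use RPM with exact conditional binomial intervals, and differences use a pseudocount of 1 RPM. limma 3.58.1 (R 4.3.3, eBayes with trend, Benjamini-Hochberg adjustment, 5.28 prior degrees of freedom) fitted log2(RPM + 1) for all genes whose mean reached 1 RPM. The fit was first run on simulated data with 200 changed genes. Each of these had a higher mean than any Zscan4 copy and a larger change than any member. The simulation therefore does not show how the fit performs on the Zscan4 copies. Members and lists were chosen with earlier results of these data known. Members with at least 10 reads, genes past 2-fold and the 3 with the highest mean in each list other than the cell type markers, 3 neighbours a side and the 5 nearest patterns are named, and other genes picked out were chosen after their values were seen. Of the genes with the highest means, 1 is not reported here. Transcripts are from GENCODE M21 and promoters from RefSeq, both on GRCm38; neither was joined to mm9 coordinates, since chromosome 1 ends at 197002909 in the tables and at 195323493 in GENCODE. Alternatives changed the pseudocount, the filter, the scaling, the line term and the trend.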

Additional observations from a re-analysis of the deposited data

Results flagged for a closer look

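Zfp352 and Dppa2 stood on opposite sides of their wild types in the 2 lines, and no counting interval of these 4 ratios included 1. On the log2 RPM scale, Zfp352 differed by 1.16 between knockout and wild type in E14 and by −1.30 in JB1. Dppa2 differed by −0.10 in E14 and by 0.34 in JB1. Neither difference between the lines was tested, because 1 library a group leaves no residual degree of freedom for it.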

How the results depend on the processing

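A pseudocount added to both levels cannot change which is higher, so it says nothing about direction. Under RPM of the reads in the listed genes and under scaling by the median ratio, 0 of 18 member differences changed sign. These scalings shifted log2 differences within a line by at most 0.0208, while the smallest member difference was −0.0954 (Dppa4 in E14). They could therefore hardly have changed a sign. A pseudocount of 0.1 moved 8 of the 18 beyond their counting interval and a pseudocount of 5 moved 11, while neither scaling moved any. For the summed Zscan4 level in JB1, a pseudocount of 5 gave 0.71 in place of 1.07, below 2-fold. With RPM of the reads in the listed genes, the JB1 over E14 ratio of that sum was 0.153 in wild types and 0.2385 in knockouts, in place of 0.198 and 0.306 (chosen after seeing the data, as were the sums without pseudogenes). Genes past 2-fold in E14 numbered 44 higher and 6 lower with a pseudocount of 5, and 176 and 54 with RPM of the reads in the listed genes, in place of 117 and 33. In JB1 a pseudocount of 5 left 111 higher and 83 lower in place of 328 and 208. limma called 0 genes under each of 6 alternatives, and the adjusted p of the members ran from 0.593 to 1.00 over them. The line term already pairs each knockout with its own wild type, and limma without that term called 0 genes too. With 1 library a group there are no replicate numbers to block on and no library can be left out within a group. The alternatives for Tcstv were not run, since no member had that symbol. Single Zscan4 copies in JB1 wild type rest on 43 to 66 reads, and Zfp352 on 24 to 86.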
